A study of Homo sapiens with 12 samples.

Results

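Mitosis genes are described here, 42 genes for proteins that build the spindle, fasten chromosomes to it, time their separation or divide the cell. They were found by name: a probe belonged to the set when the gene symbol beside it in the non-normalized intensity table was one of the 42, and each gene was represented by its brightest probe over the 12 arrays. All 42 of 42 were found among the 15249 genes measured. Their RNA was above background (detection p-value under 0.05) on all 12 arrays for 41 of them, and on 10 arrays for MKI67.

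The cells were EA.hy926, a hybrid of human umbilical vein endothelium and a lung carcinoma, which per the labels lacks estrogen receptor alpha (gene ESR1). They carried either the plasmid pCMV3-ERalpha (receptor cells) or the empty backbone pCDNA 3.1 (control cells), and both had been selected with puromycin at 5 µg/ml for 2 to 3 weeks and kept at 2 µg/ml. Colonies numbering 8 to 10 were picked, and the labels do not say whether these were pooled or which colony an array stands for, so any other difference between the transfected populations cannot be told apart from the receptor. At 80% confluence the cells went into medium without serum for 24 h and then received, for 16 h, either the solvent ethanol (vehicle) or 17-beta-estradiol at 10 nM, with 3 arrays in each of the 4 groups. The study calls these biological replicates. Illumina BeadChips measured total RNA of the whole culture, so more cells in mitosis and more RNA per cell cannot be told apart.

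Levels are normalized log2 levels, on which a difference of 1 is a doubling, and a gene was called when its adjusted p in limma was under 0.05. Detected probes made up 39.0% to 41.7% of each array. The ESR1 probe was above background on 0 of 12 arrays (detection p-value 0.103 to 0.681), so it gives no check of the labels. Of 25 endothelial markers, 21 passed the filter on detection and 18 were detected on all 12 arrays, the brightest being ECSCR, ICAM2 and CDH5, while FLT1, EMCN, CLDN5 and TAL1 were detected on none. Their summed linear level was 45246 to 48978 in vehicle-treated control cells and 31526 to 41168 in vehicle-treated receptor cells (43339 to 47065 and 30739 to 42750 under estradiol). Of the 21, 2 were called higher and 7 lower in receptor cells under vehicle (42.9% called, against 8.54% of all genes). Under estradiol 1 was called higher and 4 lower (23.8%, against 7.6%). Epithelial markers, of which 8 of 17 passed, summed to 3919.9 to 4061.1 in control cells and 4878.5 to 7840.5 in receptor cells under vehicle (4068.9 to 4263.0 and 4847.8 to 7906.2 under estradiol), with CDH1 detected on no array. Their sum follows bright keratins: 3 members were called higher and 1 lower, MUC1 at -1.15 (4 and 1 under estradiol, MUC1 at -1.09). Mesenchymal markers, 5 of 14 passing, summed to 4127.9 to 4646.0 in control and 5167.6 to 5830.4 in receptor cells under vehicle (4326.2 to 4357.3 and 4837.2 to 5435.7 under estradiol), although only CDH2 was called higher and FAP and TAGLN were called lower, at -0.75 and -0.58 (-0.76 and -0.52 under estradiol). Leukocyte markers, 6 of 13 passing, summed to 1622.4 to 1673.0 and 1436.7 to 1528.3 under vehicle (1615.6 to 1919.9 and 1308.6 to 1528.4 under estradiol), with PTPRC, CD3E and NKG7 detected on none, while LCP1 and ITGAX were called higher under vehicle, at 0.83 and 0.99, and ITGAX under estradiol, at 1.13. MUC1, TAGLN and LCP1 were named after their values were seen. The part these shifts play in the results on mitosis genes was not tested.

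In dividing cells the genes of mitosis are switched on late in the cycle. Cyclin B with its kinase CDK1 starts the process, polo-like and Aurora kinases mature the spindle poles, and kinetochores grip the microtubules while the spindle checkpoint holds back the anaphase-promoting complex. That complex then lets cyclin and securin be destroyed, sister chromatids part, and a contractile ring divides the cell. Many of these genes share a promoter layout with CCAAT boxes, bound by the factor NF-Y, and an element near the start called CHR (cell cycle genes homology region), to which the MuvB core binds, with repressors in resting cells and with B-MYB and FOXM1 in dividing ones.

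This layout was visible in the sequences. RefSeq promoter windows (GRCh38.p14, 250 bases before to 50 bases after a gene's start) were matched by symbol for 34 of the 42 genes, 4 of them with several windows, giving 38 windows. No window was matched for UBE2C, TPX2, BUB3, BIRC5, PBK, FOXM1, AURKA and TTK. The 6 sequences chosen are 4 genes called higher in receptor cells under both treatments (NEK2, BUB1, CDC20, KIF4A) and 2 called in no comparison (PLK1, CCNA2). Capitals mark CHR matches (TTTGAA or TTCGAA, either strand) and CCAAT matches (either strand), and the last 50 bases follow the start.
NEK2 (chr1:211675572-211675871, minus strand): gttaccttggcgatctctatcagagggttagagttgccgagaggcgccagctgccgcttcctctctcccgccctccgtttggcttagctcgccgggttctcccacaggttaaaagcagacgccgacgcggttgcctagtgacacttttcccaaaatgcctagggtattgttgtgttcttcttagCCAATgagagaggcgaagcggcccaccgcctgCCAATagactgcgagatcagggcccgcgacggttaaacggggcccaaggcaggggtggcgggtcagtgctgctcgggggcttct
BUB1 (chr2:110678014-110678313, minus strand): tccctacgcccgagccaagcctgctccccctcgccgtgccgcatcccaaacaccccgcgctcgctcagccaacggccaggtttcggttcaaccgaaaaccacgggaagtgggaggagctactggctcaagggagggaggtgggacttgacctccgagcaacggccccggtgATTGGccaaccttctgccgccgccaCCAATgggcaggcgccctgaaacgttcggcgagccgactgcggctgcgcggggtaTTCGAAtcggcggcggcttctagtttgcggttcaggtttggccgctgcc
CDC20 (chr1:43358731-43359030, plus strand): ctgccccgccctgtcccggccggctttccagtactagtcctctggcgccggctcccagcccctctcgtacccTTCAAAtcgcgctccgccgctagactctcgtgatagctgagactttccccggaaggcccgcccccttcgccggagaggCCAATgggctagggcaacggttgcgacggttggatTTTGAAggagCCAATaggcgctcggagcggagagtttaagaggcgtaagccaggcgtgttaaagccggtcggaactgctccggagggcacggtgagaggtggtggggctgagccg
KIF4A (chrX:70289854-70290153, plus strand): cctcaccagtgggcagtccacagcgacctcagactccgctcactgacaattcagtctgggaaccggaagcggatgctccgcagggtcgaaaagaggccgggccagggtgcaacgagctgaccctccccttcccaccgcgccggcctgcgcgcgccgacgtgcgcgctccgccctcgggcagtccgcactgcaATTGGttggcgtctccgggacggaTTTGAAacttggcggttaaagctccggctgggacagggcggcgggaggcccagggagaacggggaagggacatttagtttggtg
PLK1 (chr16:23678639-23678938, plus strand): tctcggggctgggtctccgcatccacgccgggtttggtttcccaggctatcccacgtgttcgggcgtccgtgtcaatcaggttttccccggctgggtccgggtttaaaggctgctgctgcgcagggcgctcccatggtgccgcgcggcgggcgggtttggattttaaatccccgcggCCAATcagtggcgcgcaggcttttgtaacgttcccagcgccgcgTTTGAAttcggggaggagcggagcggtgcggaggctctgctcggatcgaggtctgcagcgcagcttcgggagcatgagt
CCNA2 (chr4:121823834-121824133, minus strand): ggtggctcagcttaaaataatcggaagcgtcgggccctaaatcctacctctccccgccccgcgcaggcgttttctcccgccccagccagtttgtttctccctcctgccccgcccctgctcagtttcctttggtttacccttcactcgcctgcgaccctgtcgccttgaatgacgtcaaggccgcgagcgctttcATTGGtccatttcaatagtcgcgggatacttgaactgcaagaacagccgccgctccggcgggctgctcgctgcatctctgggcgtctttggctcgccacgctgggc
NEK2 and CCNA2 hold no match to the CHR letters in this window, although each holds a CCAAT match. Only TTTGAA and TTCGAA were searched, so an element spelled otherwise would be missed.

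Of the 38 windows, 28 (73.7%) held a CHR match, against 16.4% of the 35116 windows of all genes. TTTGAA alone was in 71.1%, against 15.2%. A CCAAT box was in 31 (81.6%, against 34.6%), at least 2 of them in 57.9% (against 10.8%), and both kinds of element in 60.5% (against 6.38%). The elements also lay at characteristic places. Of 39 CHR matches, 27 (69.2%) began within 50 bases of the start, against 27.3% of such matches in all windows, and 39 of 72 CCAAT matches (54.2%) began 51 to 100 bases before it, against 28.7%. In the 100 bases up to the start, 42.1% of the windows held a CHR match (4.92% of all) and 68.4% a CCAAT box (18.1% of all). Called and uncalled genes alike held these motifs. A CHR match stood in 9 of 13 genes that were called higher in receptor cells under vehicle and have a window, and in 17 of 21 that were not called, and a CCAAT box in 11 of 13 and 17 of 21.

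**Figure D1:**
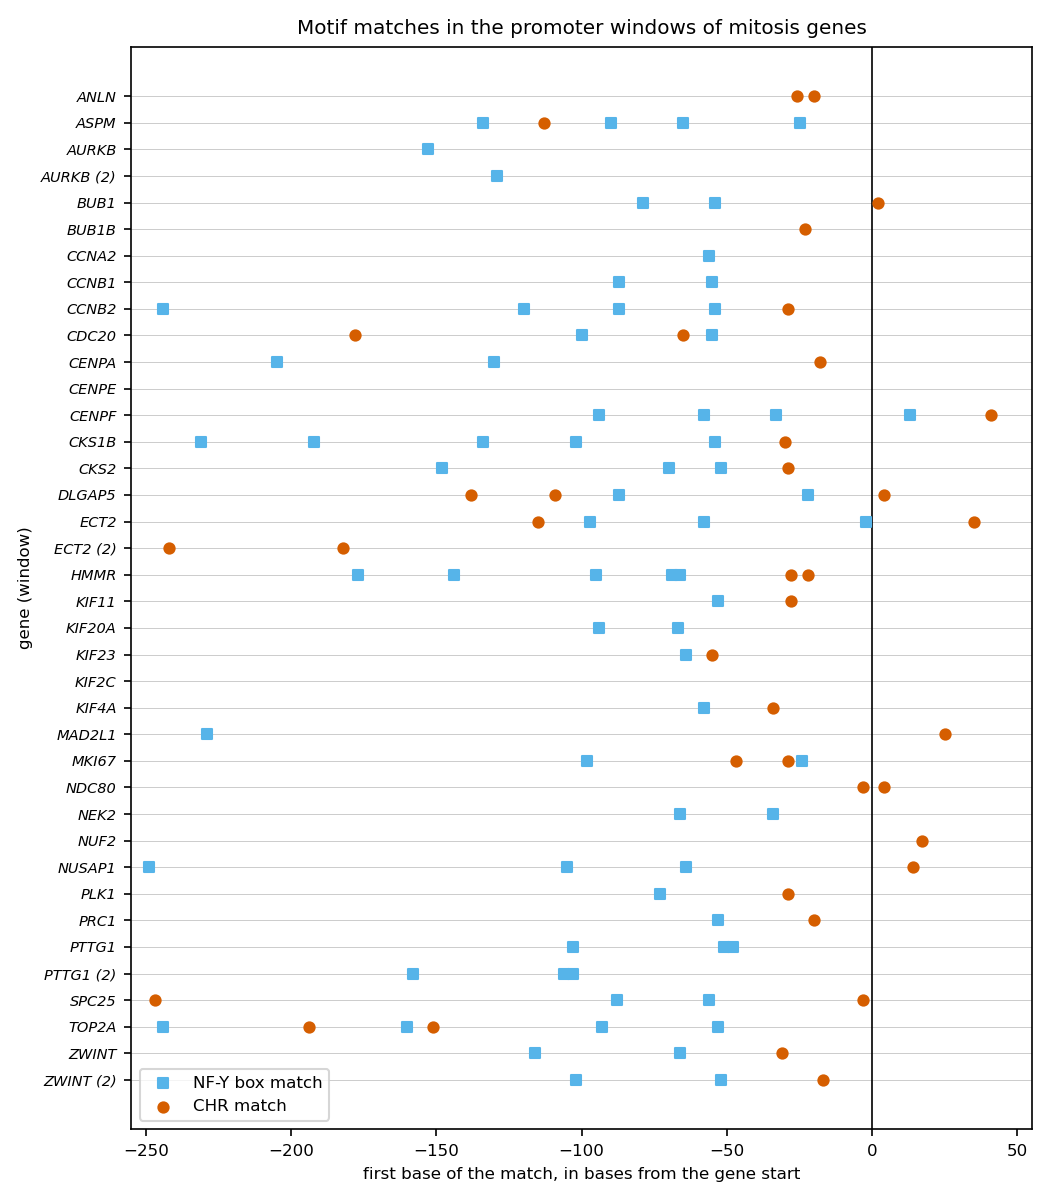
Each row is a promoter window of a mitosis gene, and the axis gives bases from the gene's start (vertical line). Circles mark the first base of CHR matches, 27 of 39 of which begin within 50 bases of the start, and squares that of CCAAT matches (NF-Y box), 39 of 72 of which begin 51 to 100 bases before it; (2) marks the next window of the same gene.

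The first question was how cells that carry the receptor differ from control cells without added hormone. Mitosis genes were higher in receptor cells. The members were chosen with earlier results of these data known. The shares set against all genes, here and under estradiol, are therefore a description and not independent evidence. Under vehicle 14 of 42 were called higher (33.3%, against 8.54% of all genes called in either direction and 3.74% called higher) and 0 lower (4.79% of genes), among them the centrosome kinase NEK2, the checkpoint kinases TTK and BUB1, and TOP2A, which untangles DNA. The median log2 fold of the 42 was 0.35, against -0.01 over all genes, and 40 had a fold above 0 (47.9% of all genes did). In 22 members every receptor array lay above every control array, as in 13.5% of genes, and in 0 below (16.5% of genes). Leaving out 1 array left 5 to 14 calls: 7, 5 and 9 without vehicle control replicates 1, 2 and 3, and 8 without vehicle receptor replicate 2, with a median fold of 0.29 to 0.44 throughout. The share of all genes called without these arrays is not given, so these counts cannot be read as a change in the members alone.

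Under estradiol mitosis genes were again higher in receptor cells. The test called 12 of 42 members higher (28.6%, against 7.6% of all genes in either direction and 3.24% higher) and 0 lower (4.36% of genes), with a median of 0.38 (-0.01 over all genes), 41 folds above 0 (48.3% of genes), and 27 members higher without overlap (12.2% of genes) and 0 lower (15.1%). At an unadjusted p under 0.05 in limma 24 members were higher and 0 lower (23.1% of genes in either direction, 10.9% higher), as were 24 under vehicle (25.4% and 11.9%). Leaving out 1 array left 7 to 14 calls, with 7 each without estradiol control replicates 1 and 2 and estradiol receptor replicate 2. These counts, too, are given without the share of all genes called. Called under both treatments were 10 members (1.85% of genes): NEK2, TTK, BUB1, CDC20, AURKB, KIF20A, KIF2C, KIF4A, ASPM and TOP2A. For 13 members (5% of genes) all 6 receptor arrays lay above all 6 control arrays, namely these 10 with ZWINT, NUSAP1 and DLGAP5, and for 0 members (7.54% of genes) all lay below. The vehicle and estradiol comparisons use separate arrays, but of the same cell populations.

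**Figure D2:**
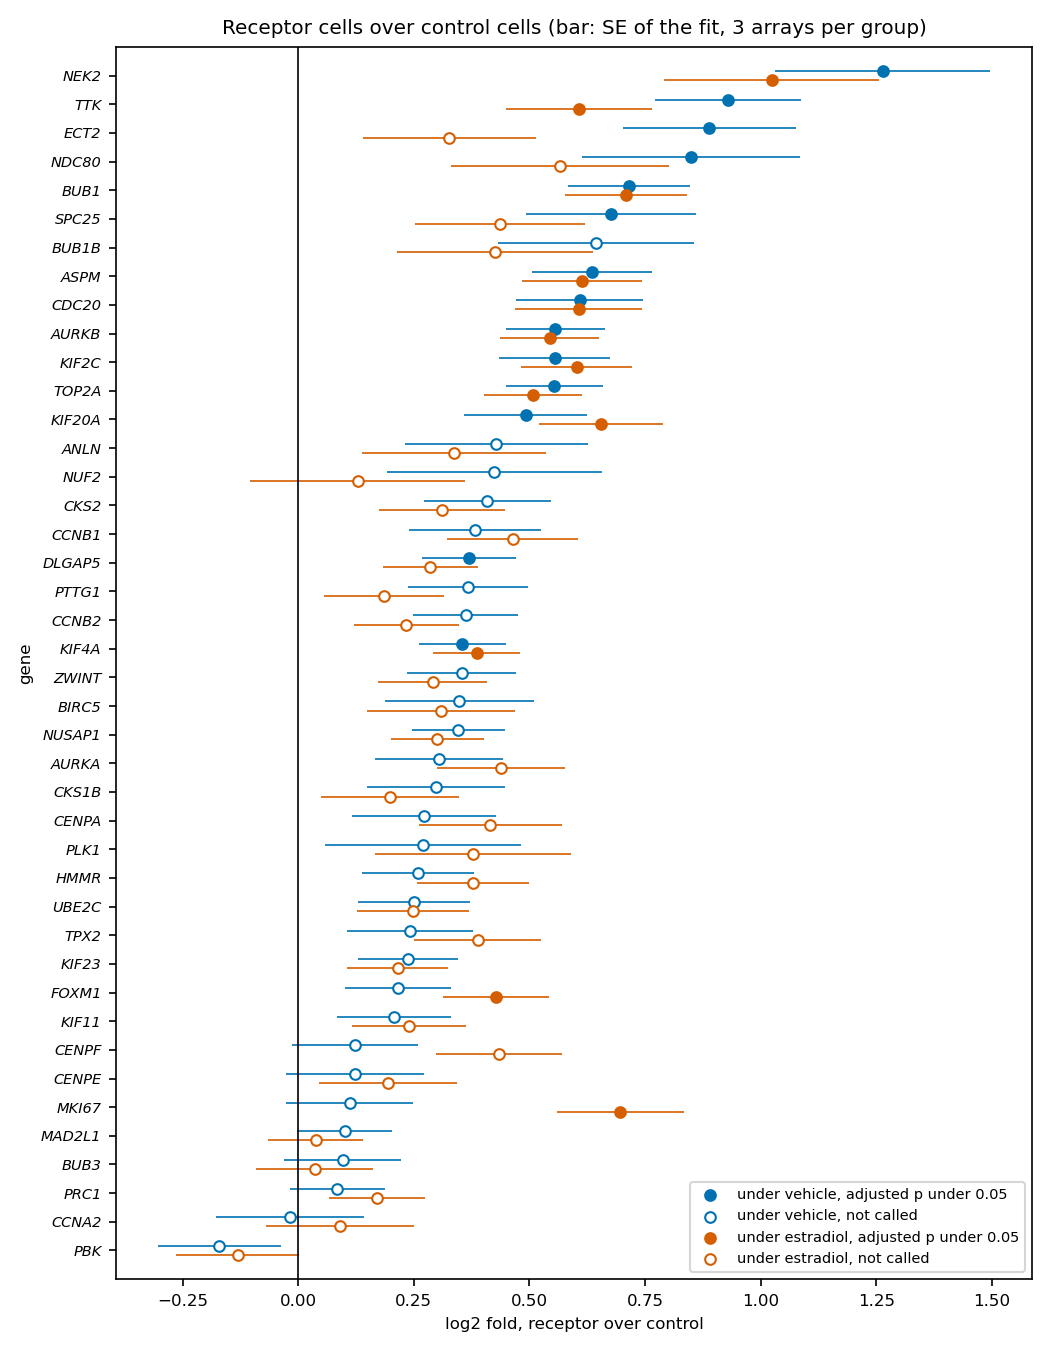
Log2 fold of receptor over control cells (horizontal axis) for each mitosis gene under vehicle (blue) and estradiol (orange), with SE bars; filled points were called. The folds run from -0.17 (PBK) to 1.26 (NEK2) under vehicle, 14 points are filled there and 12 under estradiol, and PBK alone lies below 0 in both.

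The cyclins and the CKS proteins that bind their kinases gave 0 calls in 5, a group too small to set against the 8.54% and 7.6% of all genes called. Cyclin B1 (CCNB1), the partner of CDK1 at the entry into mitosis, had levels of 7.04, 6.84 and 6.98 in vehicle-treated control cells and 7.19, 7.53 and 7.28 in receptor cells. Under estradiol they were 7.08, 6.81 and 7.29 in control against 7.55, 7.65 and 7.36 in receptor cells. The groups did not overlap under either treatment, but the folds of 0.38 (SE 0.14, adjusted p = 0.115) and 0.46 (SE 0.14, adjusted p = 0.0688) missed the threshold. Cyclin B2 (CCNB2) was close to it under vehicle at 0.36 (SE 0.11, adjusted p = 0.0672), as was CKS2 at 0.41 (SE 0.14, adjusted p = 0.084). CKS1B had 0.30 and 0.20 under vehicle and estradiol. CCNA2, the cyclin of S phase and early mitosis, stood apart with -0.02 (SE 0.16, adjusted p = 0.959) under vehicle and 0.09 (SE 0.16, adjusted p = 0.794) under estradiol.

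Among the mitotic kinases NEK2, which helps separate the centrosomes, had the highest fold of the set. Its levels were 6.14, 6.14 and 6.37 in vehicle-treated control cells and 7.60, 7.60 and 7.25 in receptor cells. Under estradiol they were 6.16, 6.23 and 6.49 in control against 7.63, 7.69 and 6.63 in receptor cells. All 6 receptor arrays were above all 6 control arrays, although receptor replicate 3 under estradiol, at 6.63, was close to the highest control array at 6.49. The folds were 1.26 (SE 0.23, adjusted p = 0.00591) and 1.02 (SE 0.23, adjusted p = 0.0186), or 2.40-fold and 2.03-fold on the linear scale. A dimmer NEK2 probe, also detected on all 12 arrays, had smaller folds of 0.57 and 0.14. With no background correction the NEK2 folds were 0.71 and 0.59, still called (adjusted p = 0.00858 and 0.0239), and with the mean of its probes the estradiol fold was 0.58 (adjusted p = 0.00636). The estradiol call of NEK2 was lost without control replicate 1 or 2, or without receptor replicate 1 or 2 (folds 0.84 to 0.99, adjusted p = 0.0564 to 0.0856). Each was 1 estradiol array. Without receptor replicate 1 or 2 under both treatments the folds were 0.87 and 0.84, also not called (adjusted p = 0.0511 and 0.11). Polo-like kinase 1 (PLK1), which acts from centrosome maturation to cytokinesis, was uneven among receptor replicates. Levels were 6.56, 6.33 and 6.70 in control and 6.26, 7.05 and 7.09 in receptor cells under vehicle, and 6.54, 6.53 and 6.62 in control against 6.64, 6.91 and 7.28 in receptor cells under estradiol. Receptor replicate 1 was below all 3 control arrays under vehicle, and replicates 2 and 3 above them. The folds were 0.27 (SE 0.21, adjusted p = 0.459) and 0.38 (SE 0.21, adjusted p = 0.316). Without receptor replicate 1 under both treatments they were 0.54 and 0.53, then called (adjusted p = 0.0292 and 0.0328). The measured neighbours of PLK1 on chromosome 16 had a running median of -0.38 and -0.36 in receptor replicate 1, against -0.03 to 0.04 in replicates 2 and 3, and their part in its level was not tested. Aurora A (AURKA), of the spindle poles, had 0.30 (SE 0.14, adjusted p = 0.19) and 0.44 (SE 0.14, adjusted p = 0.0751). PBK, a kinase active in mitosis, had -0.17 and -0.13 with overlapping groups.

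FOXM1, the transcription factor of this gene set, had levels of 7.28, 7.26 and 7.50 in vehicle-treated control and 7.41, 7.68 and 7.59 in receptor cells, which overlapped. Under estradiol the levels were 7.28, 7.27 and 7.31 in control against 7.63, 7.87 and 7.64 in receptor cells, without overlap. FOXM1 was called under estradiol only, at 0.43 (SE 0.12, adjusted p = 0.0414), against 0.22 (SE 0.12, adjusted p = 0.262) under vehicle, and the estradiol responses of the cell populations differed by 0.21 (SE 0.16, adjusted p = 1.00), which was not called. The estradiol call of FOXM1 was lost without control replicate 1, 2 or 3, or without receptor replicate 2 (folds 0.35 to 0.44, adjusted p = 0.104 to 0.153).

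The spindle checkpoint delays anaphase until every chromosome is attached. Its kinase TTK (MPS1) had levels of 7.48, 7.32 and 7.50 in vehicle-treated control cells and 8.40, 8.57 and 8.12 in receptor cells. Under estradiol they were 7.40, 7.51 and 7.73 in control against 8.25, 8.37 and 7.84 in receptor cells. All receptor arrays were above all control arrays, by 0.93 (SE 0.16, adjusted p = 0.00367) and 0.61 (SE 0.16, adjusted p = 0.0344). The estradiol call of TTK was lost without control replicate 1 or 2, or without receptor replicate 1 or 2 (folds 0.50 to 0.59, adjusted p = 0.0849 to 0.141). Each was 1 estradiol array. That call was also lost without receptor replicate 1 or 2 under both treatments (adjusted p = 0.0728 and 0.13). With no filter, or with only the arrays of the groups compared, it was lost as well (adjusted p = 0.0545 and 0.0773). BUB1, the kinase that marks the inner centromere, had levels of 7.45, 7.45 and 7.38 in control against 7.96, 8.43 and 8.04 in receptor cells under vehicle and of 7.47, 7.41 and 7.58 in control against 8.22, 8.34 and 8.04 in receptor cells under estradiol. Its folds were nearly equal at 0.72 (SE 0.13, adjusted p = 0.00595) and 0.71 (SE 0.13, adjusted p = 0.00633), and it kept its call under every alternative tried in both comparisons, 19 in each. BUB1B (BUBR1), which inhibits the anaphase-promoting complex, had 0.64 (SE 0.21, adjusted p = 0.0798) under vehicle, with no overlap, and 0.43 (SE 0.21, adjusted p = 0.255) under estradiol, where receptor replicate 3 reached 5.38 and the highest control array 5.60. MAD2L1 (MAD2), which captures CDC20, had 0.10 and 0.04. BUB3, which brings BUB1 to kinetochores, had 0.10 and 0.04 with its brightest probe, but 2 dimmer probes detected on all 12 arrays had 0.91 and 1.13 under vehicle and 0.80 and 0.55 under estradiol, so its probes disagree in size. With the mean of its probes BUB3 was called in limma under vehicle at 0.71 (adjusted p = 0.00685).

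Of 3 members that act at the anaphase-promoting complex or are its target, CDC20 was called. A group of 3 is too small to set against the 8.54% and 7.6% of all genes called. CDC20, the activator that the checkpoint holds back, had levels of 11.18, 11.37 and 11.47 in control and 11.69, 11.99 and 12.16 in receptor cells under vehicle, and of 11.49, 11.33 and 11.58 in control against 12.10, 11.95 and 12.17 in receptor cells under estradiol. The groups were apart in both, with folds of 0.61 (SE 0.14, adjusted p = 0.0173) and 0.61 (SE 0.14, adjusted p = 0.018). Its neighbours on chromosome 1 had a running median of 0.29 in both receptor replicate 1 arrays, and with the neighbours' median subtracted the folds were 0.46 and 0.49 (adjusted p = 0.0969 and 0.0849), which were not called. The vehicle call of CDC20 was lost without control replicate 1 or 2, or without receptor replicate 2 (folds 0.53 to 0.62, adjusted p = 0.0618 to 0.0802). The estradiol call was lost without control replicate 1 or 2 (folds 0.54 to 0.62, adjusted p = 0.0606 to 0.0856). The ubiquitin-conjugating enzyme UBE2C had 0.25 and 0.25, and securin (PTTG1), which guards the cohesin protease until anaphase, 0.37 and 0.19, none of them called.

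Kinetochore and centromere genes gave 2 calls in 7 under vehicle and 0 in 7 under estradiol, where 8.54% and 7.6% of all genes were called, and whether the treatments differ in this count was not tested. SPC25, a subunit of the NDC80 complex that holds microtubules, had levels of 6.32, 6.07 and 5.98 in control and 7.06, 6.48 and 6.86 in receptor cells under vehicle, and of 6.05, 6.34 and 6.49 in control against 6.75, 7.005 and 6.44 in receptor cells under estradiol. The groups were apart under vehicle and overlapped under estradiol. The folds were 0.68 (SE 0.18, adjusted p = 0.0399) and 0.44 (SE 0.18, adjusted p = 0.176), and the difference of estradiol responses was -0.24 (adjusted p = 1.00). A dimmer SPC25 probe, detected on 4 arrays, had -0.26 under vehicle, and the vehicle call was lost with a random replicate block within each line (adjusted p = 0.076). With the mean of both probes SPC25 had 0.21 under vehicle (adjusted p = 0.365), and with no background correction SPC25 had 0.34 and NDC80 0.46 (adjusted p = 0.0448 and 0.0466). NDC80 itself had 0.85 (SE 0.24, adjusted p = 0.0432) and 0.57 (SE 0.24, adjusted p = 0.171), and NUF2, its partner, 0.42 (SE 0.23, adjusted p = 0.275) and 0.13 (SE 0.23, adjusted p = 0.802). Both were lowest in receptor replicate 3, where NDC80 differed from the control mean by 0.55 under vehicle and -0.05 under estradiol, and NUF2 by -0.22 and -0.15. The vehicle call of NDC80 was lost without control replicate 1, 2 or 3, or without receptor replicate 1 or 2 (folds 0.74 to 0.93, adjusted p = 0.0727 to 0.149). That of SPC25 was lost without control replicate 1, 2 or 3, or without receptor replicate 1 or 3 (folds 0.55 to 0.77, adjusted p = 0.0615 to 0.13). The centromeric histone CENPA had 0.27 and 0.42, the kinetochore motor CENPE 0.12 and 0.19, the large kinetochore protein CENPF 0.12 and 0.43, and ZWINT, which anchors the checkpoint's RZZ complex, 0.35 and 0.29. With the mean of its probes ZWINT was called in limma under vehicle at 0.47 (adjusted p = 0.0307).

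In the chromosomal passenger complex, which corrects faulty attachments, the kinase AURKB was called and its partner survivin (BIRC5) was not. AURKB had levels of 9.38, 9.24 and 9.41 in control and 9.78, 9.89 and 10.03 in receptor cells under vehicle, and of 9.34, 9.42 and 9.36 in control against 9.80, 9.999 and 9.96 in receptor cells under estradiol. The groups were apart by more than their spread in both, at 0.56 (SE 0.11, adjusted p = 0.00751) and 0.54 (SE 0.11, adjusted p = 0.00849). The estradiol call was lost without receptor replicate 2 under both treatments (fold 0.50, adjusted p = 0.0507). BIRC5 had 0.35 (SE 0.16, adjusted p = 0.196) and 0.31 (SE 0.16, adjusted p = 0.275).

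Kinesin motors gave 3 calls in 5 under each treatment. These 5 genes are too few to set against the 8.54% and 7.6% of all genes called. KIF2C (MCAK), which takes apart microtubule ends at centromeres, had levels of 8.05, 8.06 and 8.24 in control and 8.57, 8.57 and 8.87 in receptor cells under vehicle, and of 8.21, 8.14 and 8.27 in control against 8.78, 8.69 and 8.95 in receptor cells under estradiol. KIF20A, needed for cytokinesis, had 9.75, 9.999 and 9.95 in control against 10.13, 10.46 and 10.58 in receptor cells under vehicle, and 9.95, 9.81 and 9.80 in control against 10.43, 10.42 and 10.68 in receptor cells under estradiol. KIF4A, a chromosome-bound motor that also shapes the central spindle, had 7.37, 7.32 and 7.37 in control against 7.69, 7.65 and 7.79 in receptor cells under vehicle, and 7.37, 7.28 and 7.39 in control against 7.73, 7.79 and 7.68 in receptor cells under estradiol. In all 3 the receptor arrays lay above the control arrays under both treatments. The vehicle and estradiol folds were 0.56 and 0.60 for KIF2C (SE 0.12, adjusted p = 0.0144 and 0.00908). They were 0.49 and 0.66 for KIF20A (SE 0.13, adjusted p = 0.0404 and 0.0105), and 0.35 and 0.39 for KIF4A (SE 0.09, adjusted p = 0.0357 and 0.0256). With the neighbours' median subtracted KIF2C had 0.43 under vehicle and lost its call (adjusted p = 0.0681). The vehicle call of KIF2C was lost without control replicate 1 or 2 (fold 0.52, adjusted p = 0.0625 to 0.0708). That of KIF20A was lost without control replicate 1, 2 or 3, or without receptor replicate 2 or 3 (folds 0.40 to 0.54, adjusted p = 0.0821 to 0.149). That of KIF4A was lost without control replicate 1, 2 or 3, or without receptor replicate 1, 2 or 3 (folds 0.31 to 0.39, adjusted p = 0.0578 to 0.13). The estradiol call of KIF4A was lost without control replicate 1, 2 or 3, or without receptor replicate 1 or 2 (folds 0.35 to 0.41, adjusted p = 0.0521 to 0.111). The spindle-pole motor KIF11 had 0.21 and 0.24, and KIF23, of the central spindle, 0.24 and 0.22. Dimmer probes detected on all 12 arrays had 0.68 and 0.69 for KIF11, and 0.43 and -0.12 for KIF23.

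Of 6 spindle assembly genes, ASPM and DLGAP5 were called under vehicle and ASPM under estradiol. So small a group cannot be set against the 8.54% and 7.6% of all genes called. ASPM, a spindle pole protein, had levels of 7.73, 7.62 and 7.82 in control and 8.36, 8.54 and 8.17 in receptor cells under vehicle, and of 7.76, 7.74 and 7.68 in control against 8.42, 8.49 and 8.11 in receptor cells under estradiol. All receptor arrays were above all control arrays, and the folds were 0.64 (SE 0.13, adjusted p = 0.0107) and 0.61 (SE 0.13, adjusted p = 0.0121). The vehicle call of ASPM was lost without control replicate 2 (fold 0.58, adjusted p = 0.0596). The estradiol call was lost without control replicate 3, or without receptor replicate 2 (folds 0.54 to 0.59, adjusted p = 0.0538 to 0.0564). DLGAP5 (HURP), which stabilizes spindle fibres, had 0.37 (SE 0.10, adjusted p = 0.0421) and 0.29 (SE 0.10, adjusted p = 0.113), and the vehicle call was lost with a random replicate block within each line (adjusted p = 0.0563) and with the neighbours' median subtracted (0.27, adjusted p = 0.116). That call was lost without control replicate 1, 2 or 3, or without receptor replicate 2 or 3 (folds 0.32 to 0.38, adjusted p = 0.0832 to 0.134). Each was 1 vehicle array. The call was also lost without receptor replicate 2 or 3 under both treatments (adjusted p = 0.142 and 0.0658). NUSAP1, a microtubule bundler, had 0.35 (SE 0.10, adjusted p = 0.0511) under vehicle and 0.30 under estradiol. Among other alternatives, a replicate block over all groups turned the vehicle fold into a call (adjusted p = 0.0371). A dimmer NUSAP1 probe, detected on all 12 arrays, had 0.72 and 0.93. With the mean of its probes NUSAP1 had 0.53 and 0.61, both called in limma (adjusted p = 0.00657 and 0.00269). TPX2, which activates Aurora A, had 0.24 and 0.39. HMMR, a microtubule-binding spindle protein, had 0.26 and 0.38, and PRC1, which crosslinks the midzone, 0.09 and 0.17. A dimmer HMMR probe, detected on all 12 arrays, had 0.93 and 0.54. With the mean of its probes HMMR was called in limma under vehicle at 0.59 (adjusted p = 0.0158). With a replicate block over all groups, TPX2 and AURKA passed under estradiol (adjusted p = 0.0489 and 0.0449).

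ECT2, the exchange factor that switches on the contractile ring, had levels of 7.56, 7.22 and 7.52 in control and 8.38, 8.60 and 7.99 in receptor cells under vehicle, which were far apart. Under estradiol the levels were 7.62, 7.88 and 7.86 in control against 8.34, 8.27 and 7.74 in receptor cells, and receptor replicate 3 lay among the control arrays. The fold was 0.89 (SE 0.19, adjusted p = 0.0126) under vehicle and 0.33 (SE 0.19, adjusted p = 0.324) under estradiol. The difference of estradiol responses was -0.56 (SE 0.26, unadjusted p = 0.0535, adjusted p = 1.00), so it was not called. The vehicle call of ECT2 was lost without control replicate 2, or without receptor replicate 2 (folds 0.75 to 0.78, adjusted p = 0.0574 to 0.0691). Anillin (ANLN), the scaffold of the ring, had 0.43 (SE 0.20, adjusted p = 0.198) and 0.34 (SE 0.20, adjusted p = 0.34).

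TOP2A, the topoisomerase that untangles sister chromatids, had levels of 10.38, 10.57 and 10.56 in control and 10.89, 11.13 and 11.14 in receptor cells under vehicle. Under estradiol they were 10.51, 10.51 and 10.55 in control against 11.05, 11.06 and 10.98 in receptor cells. The highest control array was at 10.57 and the lowest receptor array at 10.89, with folds of 0.55 (SE 0.11, adjusted p = 0.00686) and 0.51 (SE 0.11, adjusted p = 0.011). Without receptor replicate 2 under both treatments its estradiol fold was 0.49 and not called (adjusted p = 0.0507). MKI67, the gene of the proliferation marker Ki-67, had 5.08, 5.23 and 5.23 in control and 5.15, 5.41 and 5.30 in receptor cells under vehicle, and the groups overlapped, with a fold of 0.11 (SE 0.14, adjusted p = 0.66). Under estradiol the levels were 4.65, 4.93 and 4.56 in control against 5.18, 5.61 and 5.42 in receptor cells, and MKI67 was called at 0.70 (SE 0.14, adjusted p = 0.00871). The size of this fold is uncertain: with no background correction it was 0.22 (adjusted p = 0.0329), and with the authors' normalized values also 0.22 (adjusted p = 0.0322). Its probe was near background, detected on 1 of the 3 estradiol-treated control arrays and on all arrays of the other groups. The estradiol responses differed by 0.58 (SE 0.19, unadjusted p = 0.0103, adjusted p = 1.00), which was not called. Its chromosome 10 neighbours had a running median of 0.24 to 0.28 in receptor replicates 2 and 3 and of -0.09 and -0.18 in replicate 1, and with it subtracted the folds were -0.03 under vehicle and 0.59 under estradiol (adjusted p = 0.00876).

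**Figure D3:**
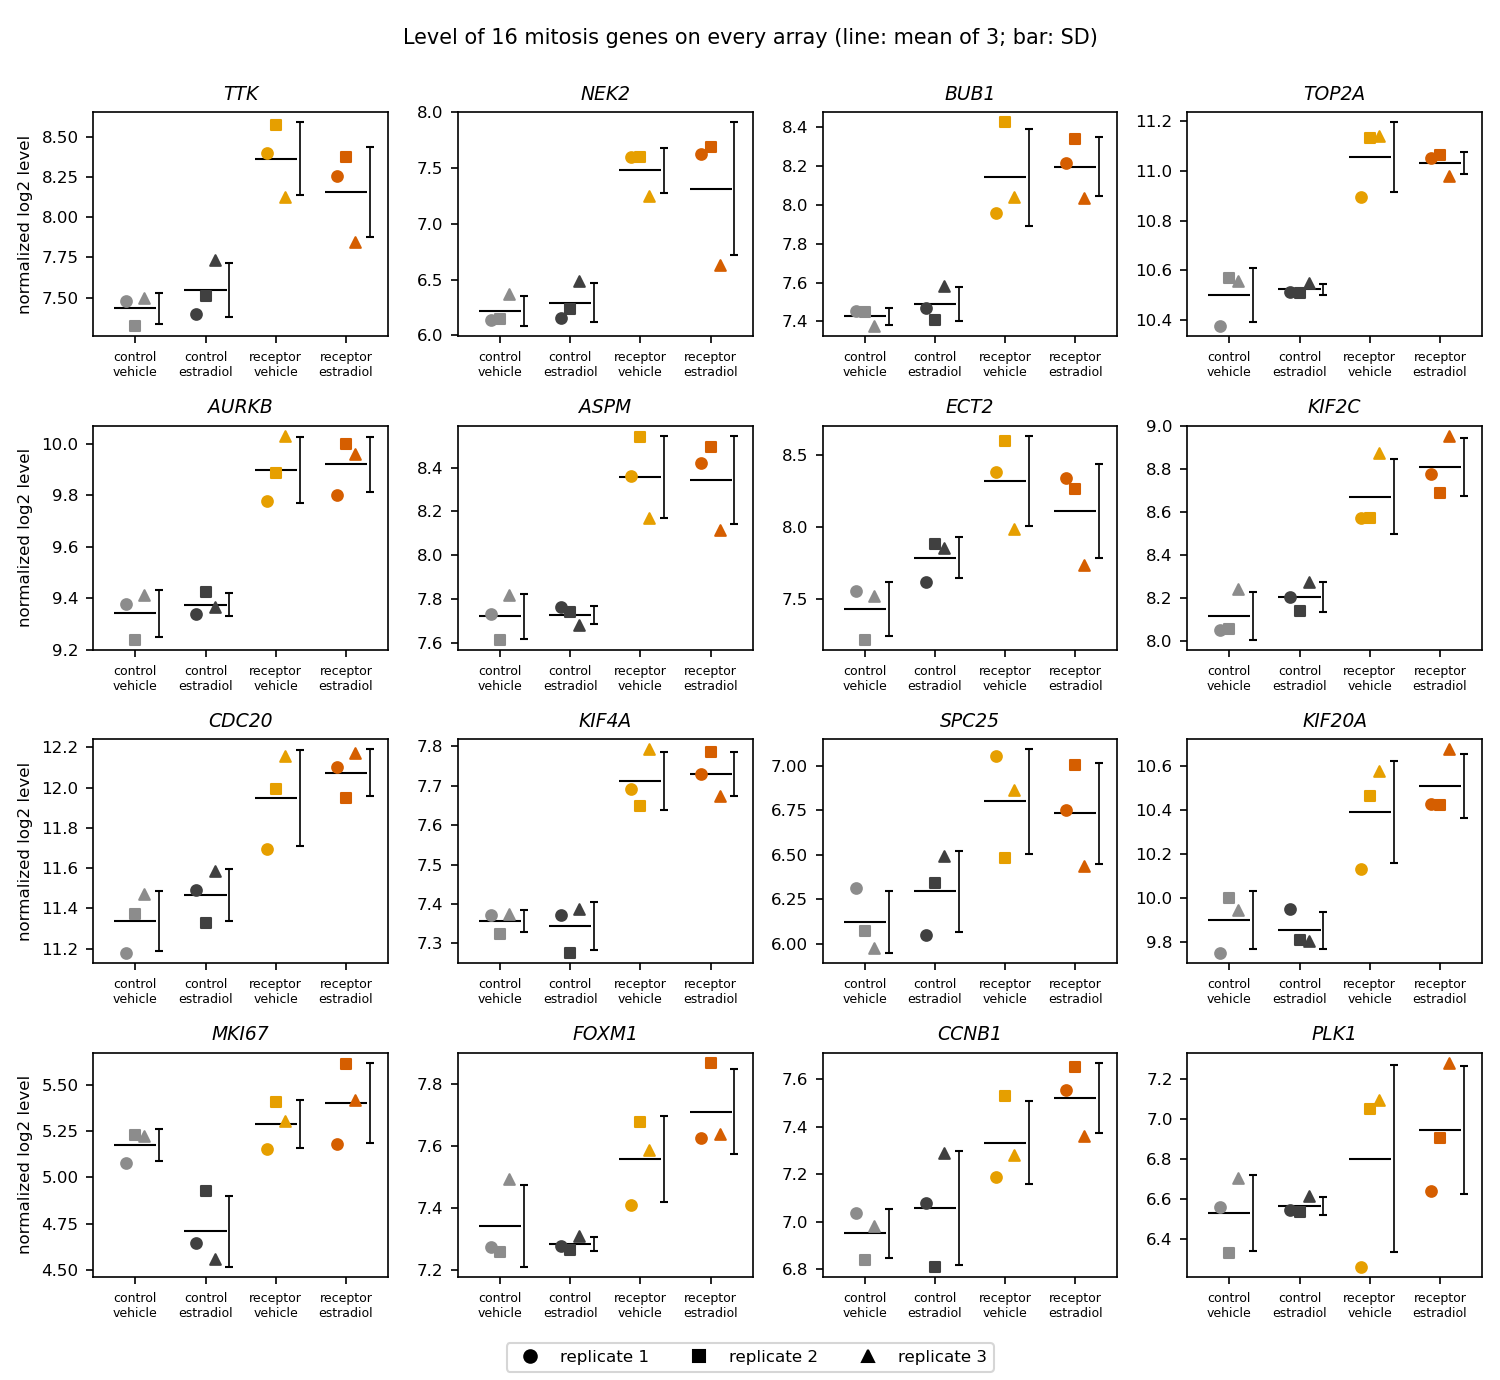
Normalized log2 level (vertical axis, a scale of its own for each gene) of 16 mitosis genes on every array, by group, with symbols for replicate numbers, a line at the mean of 3 and a bar of 1 SD. The receptor groups lie above the control groups without overlap under both treatments in the 10 genes called in both, while ECT2 and SPC25 overlap under estradiol, and MKI67, FOXM1 and PLK1 under vehicle.

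The receptor arrays differed more among themselves than the control arrays. The median SD of the 42 members in receptor cells was 0.21 under vehicle and 0.15 under estradiol, and in control cells 0.10 and 0.09 (0.19 and 0.20, and 0.12 and 0.11, over all genes). Every receptor array nonetheless held most members above the mean of the control arrays of its treatment. Replicates 1, 2 and 3 had 31, 40 and 39 of 42 above it under vehicle, with medians of 0.22, 0.40 and 0.44, and 36, 41 and 37 under estradiol, with medians of 0.33, 0.43 and 0.33. Control arrays were set against the mean of the other control arrays of their treatment, and their medians ran from -0.08 to 0.09.

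Same-numbered receptor arrays deviated together over all genes, and the order of the replicates among members is given beside the share of all genes. In 9 members (21.4%, below the 30.5% of genes) both replicate 1 arrays lay above both replicate 3 arrays: NEK2, TTK, BUB1B, NDC80, NUF2, KIF11, ASPM, ECT2 and ANLN. In 19 (45.2%, against 33.2%) it was the reverse, PLK1, CDC20, AURKB, KIF20A, KIF2C and CENPA among them. Both replicate 2 arrays lay above both replicate 1 arrays in 19 members (45.2%, against 27.3%), including BUB1, FOXM1, TOP2A and MKI67, and the reverse held in 5 (11.9%, against 26.2%). Both replicate 2 arrays lay above both replicate 3 arrays in 16 (38.1%, against 23.3%), and the reverse held in 14 (33.3%, against 27.5%). These orders are given as a description, with no test, and whether the numbers stand for different colonies is not stated in the labels.

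**Figure D4:**
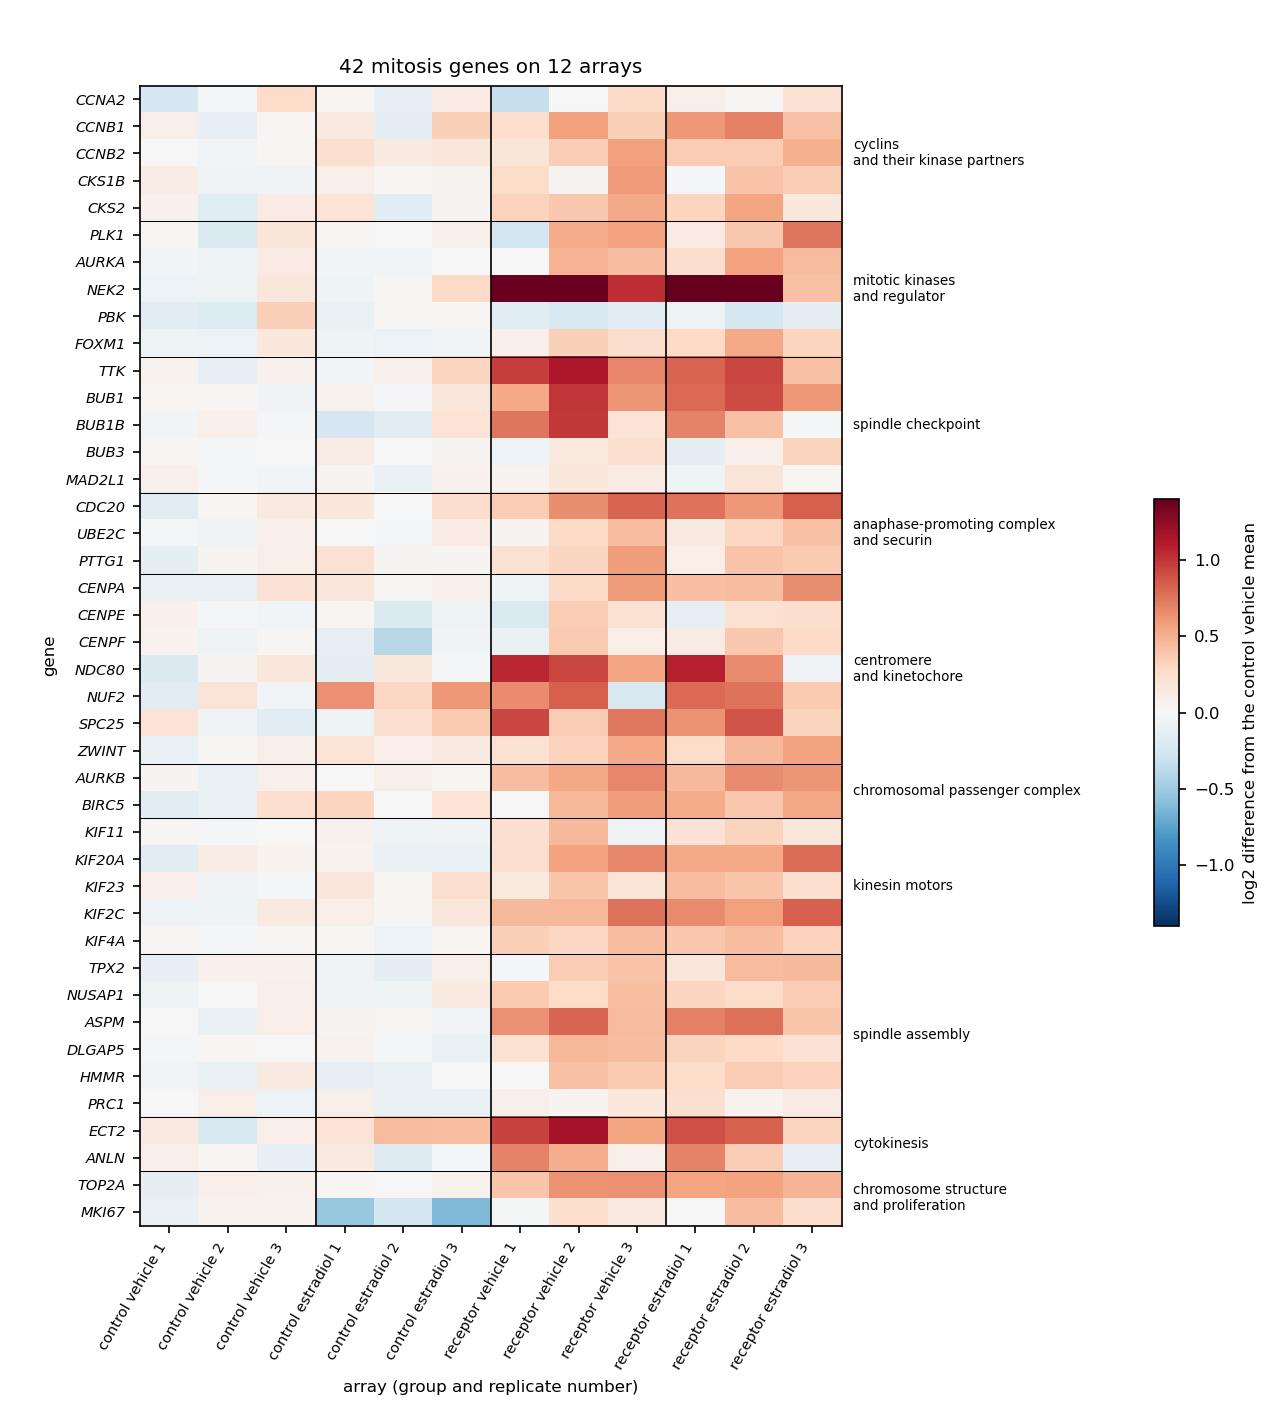
Difference of each mitosis gene (rows, by role) from its mean in vehicle-treated control cells on each of 12 arrays (columns), on a log2 colour scale. The 6 receptor columns are mostly red, NEK2 most of all, while PBK and CCNA2 show no such shift, and the NDC80, NUF2, ECT2 and ANLN rows are paler in receptor replicate 3 than in replicate 1.

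The next question was whether the hormone itself changed these genes. In receptor cells estradiol passed the test for 0 of 42 members (0.0721% of all genes, 11 in number, were called, all higher), none passed even an unadjusted p under 0.05 in limma (3.46% of genes did, 2.08% of them upward and 1.38% downward, as shares of all genes), and in none were the groups apart (2.87% of genes upward, 2.56% downward). The median fold was 0.03, 25 of 42 were above 0 (48.2% of genes), and the folds ran from -0.29 for BUB1B to 0.23 for CENPA. CCNB1 had 0.19 (SE 0.14), FOXM1 0.15 (SE 0.12), TOP2A -0.02 (SE 0.10) and TTK -0.21 (SE 0.16). Taken by replicate number, which pairs the receptor arrays, estradiol was above vehicle in all 3 pairs in 9 members (13.2% of genes) and below in 4 (14.5% of genes). TTK differed by -0.14, -0.20 and -0.28 in pairs 1 to 3 and ECT2 by -0.04, -0.34 and -0.25, while FOXM1 differed by 0.22, 0.19 and 0.05 and KIF2C by 0.21, 0.12 and 0.08. A fit with the replicate number as a fixed block within each line, chosen after seeing the data, called 0 of 42 (0.23% of genes), with 0 at an unadjusted p under 0.05 (8.03% of genes). In that fit 0 members were called in control cells (0% of genes) and for the difference of responses (0.059% of genes). Control cells had ECT2, MKI67 and NUF2 at an unadjusted p under 0.05 in that limma fit (5.98% of genes). For the difference of responses they were CENPF, ECT2, MKI67 and TTK, 2 higher and 2 lower (7.47% of genes). With an SE of this size a change well under 2-fold could go uncalled.

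In control cells estradiol likewise gave 0 calls (0% of genes called), with a median of 0.02. At an unadjusted p under 0.05 in limma MKI67 was lower (-0.47, adjusted p = 1.00) and NUF2 higher (0.51, adjusted p = 1.00), 2 of 42 where 2.31% of genes were (1.34% lower and 0.971% higher). Folds above 0 numbered 27 of 42 (48.9% of genes). Groups were apart upward in 4 members, NUF2, ECT2 (0.35), CCNB2 (0.17) and ZWINT (0.13), as in 5.14% of genes, and downward in MKI67 (5.93% of genes). The difference between the estradiol responses of receptor and control cells was called for 0 members (0.0328% of genes, 5 in number). In this limma fit without a replicate block, the only one at an unadjusted p under 0.05 was MKI67 (2.87% of genes). That difference was above 0 in 17 of 42 (49.9% of genes). The comparisons of receptor with control cells and of estradiol with vehicle share arrays.

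**Figure D5:**
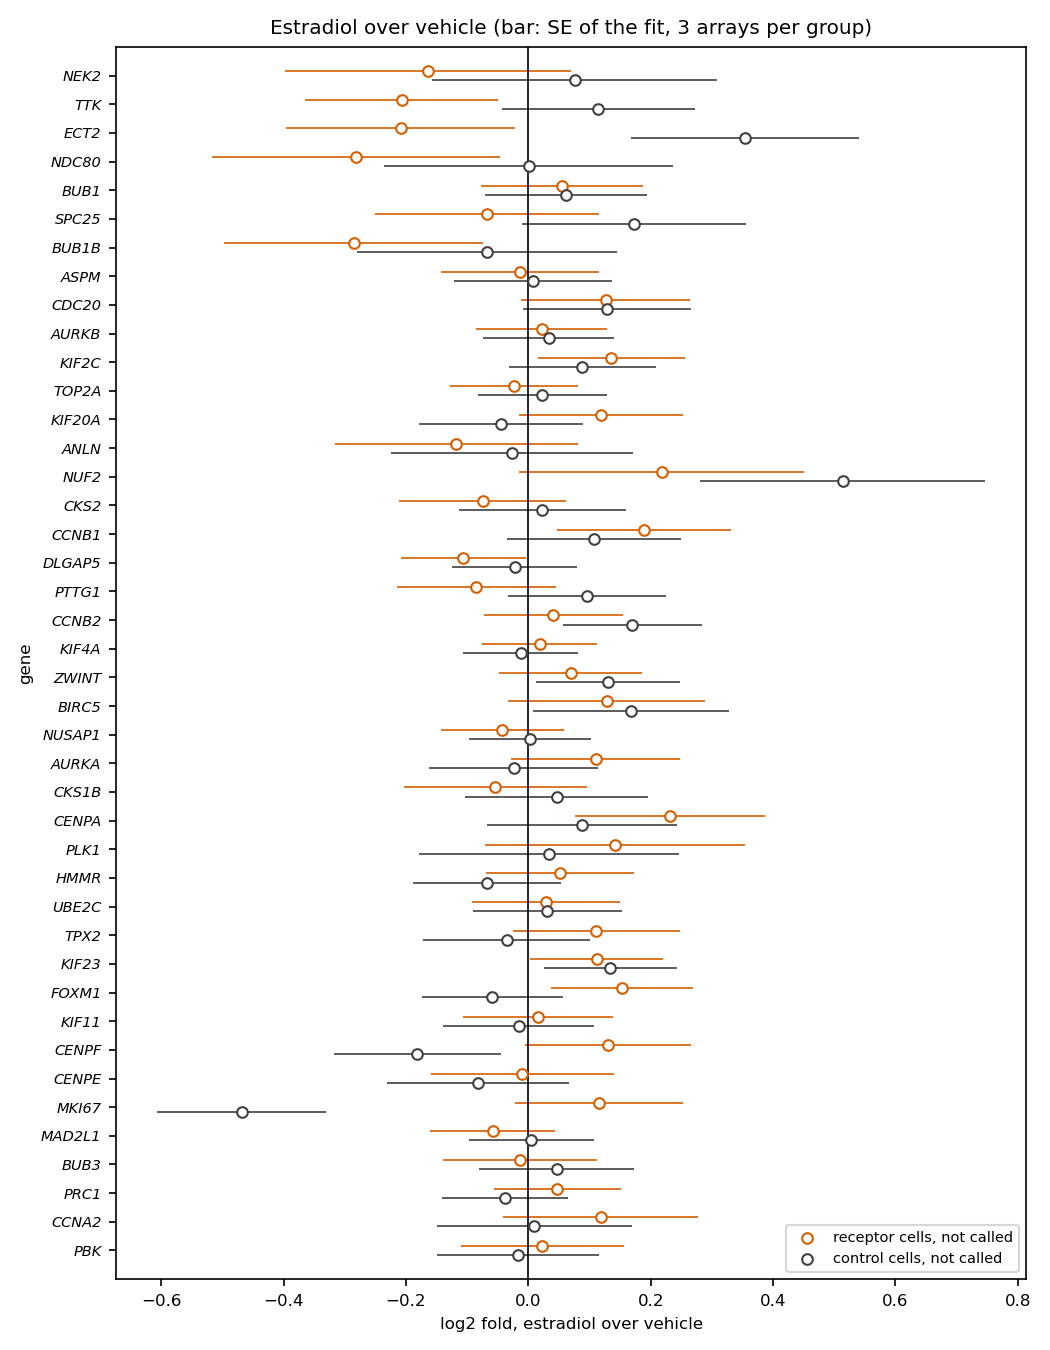
Log2 fold of estradiol over vehicle (horizontal axis) for each mitosis gene in receptor cells (orange) and control cells (grey), with SE bars. All points are open because none was called; MKI67 at -0.47 and NUF2 at 0.51 in control cells lie farthest from 0.

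Genes around these 42 were read in the same fit. These lists too were chosen with earlier results of these data known. Of 99 other mitosis genes 92 were measured, and under vehicle 16 were called higher and 2 lower in receptor cells, with a median of 0.25 (13 and 1 under estradiol, median 0.26). The share called higher was 17.4% against 3.74% of all genes under vehicle, and 14.1% against 3.24% under estradiol. CDK1, the kinase of cyclin B, which the array lists under its former symbol CDC2, rose by 0.76 (SE 0.13, adjusted p = 0.00403) under vehicle and by 0.65 (adjusted p = 0.0098) under estradiol. The spindle motor KIF15 had 0.88 and 0.69, and the centromere protein CENPW 1.05 under vehicle (adjusted p = 0.00144, 0.00661 and 0.00414). BORA, which helps Aurora A activate PLK1, had 0.73 under vehicle, and under estradiol the centromere histone chaperone HJURP had 0.65 and PSRC1 0.72 (adjusted p = 0.00207, 0.00838 and 0.00816). The called decreases, named after their values were seen, were in FZR1, an activator of the anaphase-promoting complex, at -0.57 under vehicle, and MASTL, the Greatwall kinase, at -0.40 and -0.56 under vehicle and estradiol (adjusted p = 0.0197, 0.0421 and 0.00904).

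In a list of 37 regulators of mitotic transcription, which does not hold FOXM1, the share called was near or below that of all genes. In it 34 were measured, and 0 were called higher and 3 lower under vehicle (0 and 1 under estradiol), with medians of -0.06 and -0.08. That is 8.82% called against 8.54% of all genes, and 2.94% against 7.6%. The lower ones were the CDK4 inhibitor CDKN2D at -0.58 and -0.74 under vehicle and estradiol (adjusted p = 0.00854 and 0.00188), the repressor E2F8 at -0.67 and the activator E2F2 at -0.55 under vehicle (adjusted p = 0.0126 and 0.0276). MYBL2, which encodes B-MYB, had 0.20 under vehicle (adjusted p = 0.563), the CDK inhibitors CDKN1A and CDKN1B -0.31 and -0.34 (adjusted p = 0.0999 and 0.149), and cyclin D1 (CCND1) -0.22 (adjusted p = 0.28). Of 48 DNA replication genes, all measured, 5 were called higher and 1 lower under vehicle, and 4 and 1 under estradiol, with medians of 0.17 and 0.11. In either direction that is 12.5% called against 8.54% of all genes, and 10.4% against 7.6%. Called higher were 10.4% against 3.74% of all genes under vehicle, and 8.33% against 3.24% under estradiol. Folds above 0 numbered 37 and 32 of 48 (47.9% and 48.3% of genes). At an unadjusted p under 0.05 in limma 18 were higher and 1 lower under vehicle (11.9% and 13.6% of genes). Under estradiol 13 were higher and 2 lower (10.9% and 12.2%). Groups were apart upward in 20 and downward in 3 under vehicle (13.5% and 16.5% of genes), and in 14 and 3 under estradiol (12.2% and 15.1%). Whether this list shifts as a whole was not tested. The helicase subunit MCM5 had 0.49 and 0.60, thymidine kinase TK1 0.44 and 0.47, and GINS4 -0.48 and -0.48 (adjusted p = 0.0328 and 0.014, 0.037 and 0.0283, 0.0251 and 0.0265). Estradiol over vehicle was called for 0 genes of these 3 lists in either cell population.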

How the data were processed

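The series deposited Illumina BeadChip tables of 12 arrays, 3 in each of 4 groups. The authors deposited raw probe intensity with a detection p-value per probe and array, per the file headers, and also normalized intensity, for which the submitters' processing notes name lumi. The values of that table are on a linear scale and share their quantiles over the 12 arrays, its settings are otherwise unknown, and log2 of it was taken here for an alternative. The scanner and the array software's settings are not given in the sources used here.

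Here the deposited intensities were background-corrected and quantile-normalized with neqc (limma 3.58.1, R 4.3.3, offset 16). Of 47322 probes 1 had missing values. Probes detected (detection p-value under 0.05) on at least 3 arrays were kept, 21476 in all, and the brightest named probe stood for each of 15249 genes. Symbols were updated through RefSeq, and 1 probe under an older symbol of a member was set aside. Of 68 probes of members 62 were kept. For receptor over control, 20 kept probes not used, of 18 genes, were set beside the used probe. Its sign was shared by 19 under vehicle and 18 under estradiol. A model with 1 mean per group over all 12 arrays was fitted with limma (8 residual degrees of freedom), p-values were adjusted by Benjamini-Hochberg over all genes, and 5 comparisons were read from it. The procedure was first run on simulated data with independent noise on each array. The simulation held no replicate effect and gave every group the same spread. It therefore could not check the calls under the replicate pairing or the unequal spread seen here. Precision rests on 3 arrays a group.

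The members and lists were chosen with earlier results of these data known. Values on every array are given for every member called in a comparison (of the 14 under vehicle, the 12 with the smallest p) and for TTK, BUB1, TOP2A, CCNB1, AURKB, PLK1, FOXM1 and MKI67 (16 genes in all), and from each other list at most the 4 called genes with the smallest p in a comparison plus CDK1, CCND1, CDKN1A, CDKN1B and MYBL2. Neighbours are the 25 measured genes on each side along the chromosome, and their running median is of each receptor array's difference from the control mean. Alternatives were other normalizations, filters, probe rules, variance models, left-out arrays and replicate blocks. Where a call is said to be lost without a replicate, 1 array of that treatment was left out, unless both treatments are named. Same-numbered receptor arrays deviated together from their group means (correlations of 0.762, 0.39 and 0.666 for replicates 1 to 3 over genes), so their numbers were taken to pair them. In control cells the correlations were 0.0805, 0.0325 and 0.105. The samples' independence is known only from the series' wording.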

Additional observations from a re-analysis of the deposited data

How the results depend on the processing

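The higher level of mitosis genes in receptor cells kept its direction under every alternative, while the number of calls moved. The share of all genes called under each alternative is not given here or above. A moved count therefore cannot be read as a change in the members alone. Under vehicle (14 calls) it was 9 with only the arrays of the groups compared, 18 with the authors' normalized values or with no background correction, 12 with no filter, and 12 with the neighbours subtracted. Under estradiol (12 calls) it was 8, 17, 17, 11 and 13. With only the arrays of the groups compared, CDC20, SPC25, KIF20A, KIF4A and DLGAP5 lost their vehicle calls in limma (adjusted p = 0.05001 to 0.109). NEK2, FOXM1, TTK and KIF4A lost their estradiol calls there (adjusted p = 0.0693 to 0.0858). With no filter, NDC80, SPC25 and KIF20A under vehicle and TTK under estradiol lost theirs (adjusted p = 0.0506 to 0.0859). Leaving out 1 array gave 5 to 14 and 7 to 14 calls, and leaving out a receptor replicate under both treatments gave 8 to 22 (22 without replicate 1, 8 without replicate 2) and 5 to 17 (5 without replicate 2, 17 without replicate 3). The replicate block over all groups gave 15 and 14 calls and the random replicate block within each line 12 and 12, and no block gave a call for estradiol over vehicle, including a fixed block within line chosen after seeing the data. Kept under every alternative that measured them were the calls of AURKB, BUB1, NEK2, TOP2A and TTK under vehicle and of BUB1, KIF20A, KIF2C and MKI67 under estradiol, although the MKI67 fold ran from 0.22 to 0.81. Changes of sign arose only in folds that were not called. With the neighbours subtracted, CCNA2 had 0.14, BUB3 -0.057, CENPF -0.0063 and MKI67 -0.035 under vehicle, and PBK 0.044 and BUB3 -0.10 under estradiol. Leaving out arrays gave CCNA2 -0.16 to 0.13 under vehicle (above 0 without control replicate 3, at 0.11, or receptor replicate 1). Under estradiol it gave BUB3 -0.077 to 0.14 (below 0 without receptor replicate 3) and MAD2L1 -0.029 to 0.092 (below 0 without receptor replicate 2 or, at -0.011, control replicate 2). For estradiol over vehicle in receptor cells, NDC80 had -0.54 to 0.028 and NEK2 -0.35 to 0.18, both above 0 without estradiol replicate 3, and NEK2 0.063 without receptor replicate 3 under both treatments. The cause was not tested. MKI67, near background, is limited by signal.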
